A study of Mus musculus with 12 samples.

Results

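Prostaglandins and leukotrienes are lipid mediators made from arachidonic acid, and the 10 genes described here, Pla2g4a, Ptgs1, Ptgs2, Ptges, Ptges2, Ptges3, Ptger2, Ptger4, Alox5 and Alox5ap, encode the enzymes and receptors through which dendritic cells make prostaglandin E2, respond to it, and start leukotriene synthesis. They were chosen by gene symbol among the 55335 genes in each deposited table, and all 10 passed the filter on low counts. RNA was sequenced from 12 libraries of C57BL/6 bone marrow-derived dendritic cells (BMDCs), 3 in each of 4 groups, to ask what loss of the chromatin insulator protein CTCF and stimulation with lipopolysaccharide (LPS) each did to gene expression. Bone marrow of CreER mice gave WT cells, and bone marrow of CreER;CTCF fl/fl mice gave CTCF-deficient cells (KO), both grown for 6 days with GM-CSF. Both genotypes carried the tamoxifen-activated Cre recombinase, expressed from the Rosa26 locus and not restricted to dendritic cells. 4-OH tamoxifen, which switches the Cre on, was given on the first culture day to delete Ctcf, and the sources used here leave unclear whether WT cultures also received it. The stimulated groups (WTL and KOL) had LPS, a bacterial cell wall component, at 100 ng/ml for 3 h. The floating cells of the cultures were selected on CD11c before RNA was taken, and the labels do not tie a library to an animal, so p-values measure the spread between the libraries, which may be partly technical.

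Cytosolic phospholipase A2 (Pla2g4a) frees arachidonic acid from membranes. The cyclooxygenases (Ptgs1, in most cells made at a steady level, and Ptgs2, an early response gene to bacterial products) turn it into prostaglandin H2, and the terminal synthases (Ptges, induced together with Ptgs2 in many cells, Ptges2 and Ptges3) turn that into prostaglandin E2, which acts on dendritic cells mainly through the EP2 and EP4 receptors (Ptger2 and Ptger4). On the other branch 5-lipoxygenase (Alox5) and the membrane protein that presents arachidonic acid to it (Alox5ap, also called FLAP) make leukotriene A4. In dendritic cells these mediators are known to affect maturation, cytokine output and migration to lymph nodes.

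Total expected counts were 12769773 to 16586334 per library. Ctcf, the deleted gene, had 1004 ± 40.8 normalized counts in WT, 816 ± 70.4 in WTL, 549 ± 29.0 in KO and 540 ± 20.4 in KOL (mean ± SD, n = 3; counts are scaled to the same effective library size), with no overlap between the genotypes. Cd74 and H2-Ab1 held most of the sum of 8 dendritic cell markers. Flt3 was low, at 3.57 to 3.73 TPM in WT and 0.63 to 1.11 in KO. Markers went opposite ways between the unstimulated genotypes. Itgax, the gene of CD11c, was higher in KO (356 to 374 TPM in WT, 598 to 612 in KO), and H2-Ab1 was lower (1636 to 1812 in WT, 890 to 947 in KO). The 8 summed to 7068 to 7562 TPM in WT, 7257 to 10290 in WTL, 5773 to 6056 in KO and 8172 to 12620 in KOL. All 8 B and T cell markers stayed below 1 TPM. WTL replicate 2 stood apart with 5.165% of its counts on ribosomal RNA genes, against at most 1.185% in any other library, and results that rest on it are given with and without it. It also differed most from the other libraries of its group (chi-square per degree of freedom over genes 77.7 and 72.5, against 28.3 between WTL replicates 1 and 3). KOL replicate 2 stood apart in the same way (27.2 and 28.5, against 8.07 between the other KOL libraries), which bears on Ptges3 below.

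Ptgs2 (chr1:150100031-150108227, plus strand, mm10), Ptges (chr2:30889471-30929863, minus strand) and Alox5 (chr6:116410077-116461178, minus strand) had the widest ranges among the 10 genes as the ratio of the highest to the lowest group mean, Alox5 barely ahead of Ptger2, and the 250 bases before their transcription starts are shown for that reason. The sequences are from RefSeq on GRCm38 (mm10), read 5′ to 3′ on the gene's strand, and capitals mark matches to a C/EBP motif.

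Ptgs2, chr1:150099781-150100030, plus strand: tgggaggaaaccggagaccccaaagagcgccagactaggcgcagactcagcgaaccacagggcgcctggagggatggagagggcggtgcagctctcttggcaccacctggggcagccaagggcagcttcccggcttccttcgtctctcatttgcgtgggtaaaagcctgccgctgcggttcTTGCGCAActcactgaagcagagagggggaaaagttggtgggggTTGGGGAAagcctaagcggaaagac
Ptges, chr2:30903298-30903547, minus strand: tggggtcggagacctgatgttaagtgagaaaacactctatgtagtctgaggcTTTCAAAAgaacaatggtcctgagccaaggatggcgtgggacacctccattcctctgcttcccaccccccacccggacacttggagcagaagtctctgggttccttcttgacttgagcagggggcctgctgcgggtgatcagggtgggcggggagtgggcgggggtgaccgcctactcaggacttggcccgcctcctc
Alox5, chr6:116461179-116461428, minus strand: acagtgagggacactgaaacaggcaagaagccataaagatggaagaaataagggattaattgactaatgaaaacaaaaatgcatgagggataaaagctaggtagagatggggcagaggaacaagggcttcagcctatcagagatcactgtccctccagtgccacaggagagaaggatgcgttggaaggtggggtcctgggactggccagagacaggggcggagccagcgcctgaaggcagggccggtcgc

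The stretch before Ptgs2 was 61.6% G and C with 13 CpG dinucleotides, that before Ptges 59.6% with 8, and that before Alox5 52.8% with 5, against medians of 52.4% and 6 over 32851 RefSeq windows. Part of the Ptgs2 stretch is also annotated as exon of Ptgs2os, a noncoding gene on the opposite strand, and the Ptges stretch lies inside the annotated Ptges gene, outside its exons. Motifs were searched on both strands in windows of 300 bases, from 250 before to 50 after the start, of the 9 members that have one (Alox5ap has none). The C/EBP motif TTNNGNAA, found in 40.7% of all windows, occurred at -69 to -62 and -25 to -18 of Ptgs2 and at -198 to -191 of Ptges, and also in the windows of Ptges2, Ptger2 and Pla2g4a, where its 2 matches overlap each other. The E box CACGTG (7.15% of windows) lay at 17 to 22 after the start of Ptgs2 and at -77 to -72 of Ptges2. Positions count from the RefSeq start, and the starts used in these cells were not mapped, so a site may lie elsewhere relative to them. AP-1 (TGANTCA, 7.81%), CRE (TGACGTCA, 1.79%), NF-kB (4.51%) and CTCF (1.5%) motifs had no match in any of the 9, which says only that these letters are not in these windows. Alox5, Ptgs1, Ptges3 and Ptger4 held none of the 6 motifs.

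Pla2g4a, which supplies the substrate, differed little between groups. Its normalized counts were 320, 264 and 325 in WT, 388, 287 and 274 in WTL, 233, 255 and 253 in KO and 184, 292 and 283 in KOL. The LPS groups overlapped the unstimulated groups of the same genotype, and no comparison passed an adjusted p of 0.05. The log2 fold change with its 95% interval was 0.06 (-0.26 to 0.37) for WTL against WT, 0.03 (-0.29 to 0.36) for KOL against KO, -0.29 (-0.61 to 0.02) for KO against WT and -0.32 (-0.64 to 0.01) for KOL against WTL. Fitted on the 6 WT and KO libraries alone, the KO value of -0.29 passed (adjusted p = 0.0047), and without a filter on low counts both KO differences did (adjusted p = 0.038 for each).

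The 2 cyclooxygenases moved in opposite directions with LPS. Ptgs2 counted 181, 191 and 179 in the WT libraries, 6351, 4702 and 4548 in WTL, 35.0, 34.6 and 30.6 in KO, and 2180, 2301 and 2632 in KOL. No group overlapped another, in the order KO, WT, KOL and WTL. Unstimulated KO cells held 18.2% of the WT level (log2 fold change -2.46 ± 0.17 (SE), adjusted p = 3.7e-08) and stimulated KO cells 45.6% of the WTL level (-1.13 ± 0.11, adjusted p = 1.7e-06), so that the gap between genotypes was narrower after LPS. The fold rise with LPS was accordingly larger without CTCF, 70.8-fold against 28.3-fold in WT, although the level it reached was lower. Neighbouring genes gave little signal: between Pla2g4a and Ptgs2, which lie 138.7 kb apart on chromosome 1, the annotation has no coding gene, and of the 3 noncoding genes there Gm19136 and Gm44329 were at 0 counts in all libraries. Ptgs2os, whose first exon lies next to the Ptgs2 start, was at 0 in every WT and KO library, at 2.70, 5.42 and 3.19 normalized counts in WTL, and at 0, 0 and 1.07 in KOL.

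Ptgs1 counted 593, 590 and 602 in WT, 355, 372 and 302 in WTL, 483, 443 and 438 in KO and 374, 326 and 344 in KOL. It fell with LPS in both genotypes, by 0.80 on the log2 scale in WT (SE 0.08, adjusted p = 1.5e-06) and by 0.38 in KO (SE 0.09, adjusted p = 0.0011). KO libraries lay below WT before stimulation (log2 fold change -0.39 ± 0.08, adjusted p = 0.0014) and mixed with WTL after it (0.02, 95% interval -0.15 to 0.20).

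**Figure D1:**
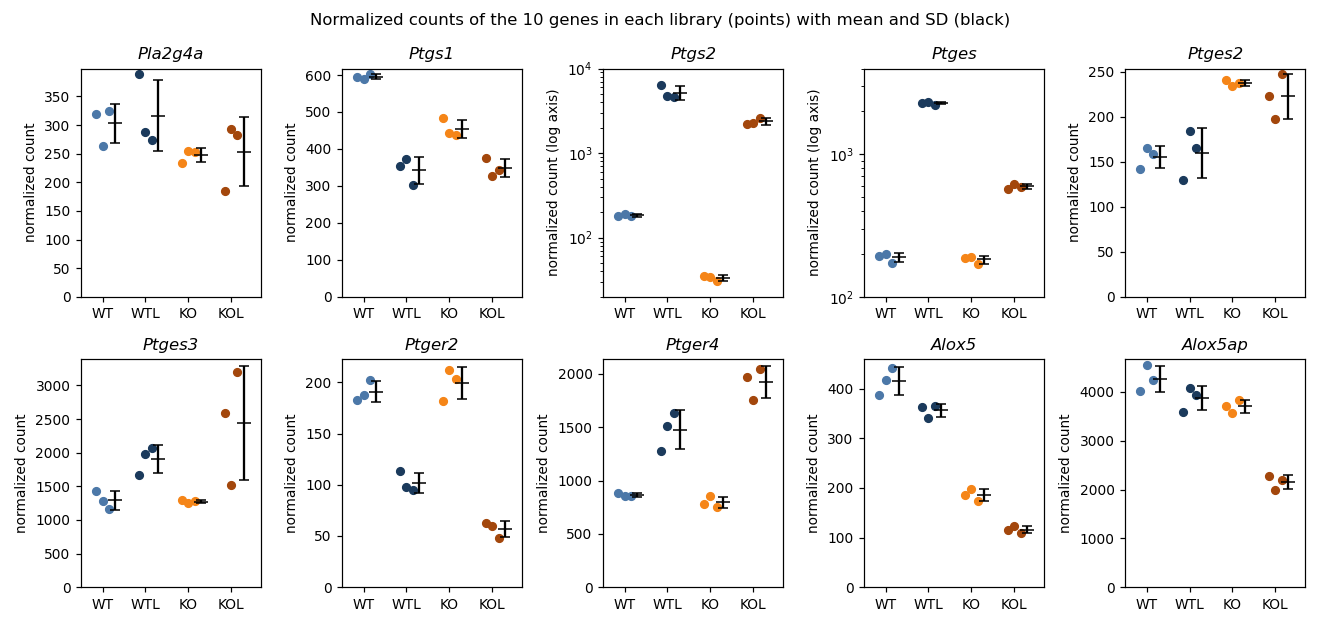
Normalized counts (y axis; a log axis for Ptgs2 and Ptges, from 0 for the others) of the 10 genes in each of the 12 libraries, by group, with the mean and SD of 3 libraries in black. Ptgs2 stands lowest in KO (30.6 to 35.0) and highest in WTL (4548 to 6351), and Alox5 steps down from WT over WTL and KO to KOL (109 to 123).

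Among the prostaglandin E synthases, Ptges showed the widest gap between the stimulated groups. Its counts were 194, 200 and 174 in WT and 188, 191 and 170 in KO, which overlapped (log2 fold change -0.05, 95% interval -0.21 to 0.11). After LPS it reached 2290, 2338 and 2237 in WTL but only 575, 621 and 594 in KOL. That is a 12.1-fold rise in WT (log2 fold change 3.60 ± 0.08, adjusted p = 9.4e-14) and a 3.26-fold rise in KO (1.71 ± 0.08, adjusted p = 1.4e-10), which left KOL at 26.1% of WTL (-1.94 ± 0.07, adjusted p = 1e-10). Among the members this was the widest gap between the stimulated genotypes, while before stimulation none was detectable.

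Ptges2, a membrane-associated synthase, was higher without CTCF, and its LPS response did not pass the test in either genotype. Its counts were 142, 165 and 158 in WT, 130, 184 and 165 in WTL, 241, 234 and 238 in KO and 223, 198 and 248 in KOL, with every KO library above every WT library at the same stimulation. The log2 fold change was 0.62 ± 0.12 for KO against WT (adjusted p = 0.00072) and 0.47 ± 0.12 for KOL against WTL (adjusted p = 0.0066). With limma on log2(TPM + 1) it was lower with LPS in both genotypes (-0.63 in WT and -0.78 in KO, adjusted p = 6.3e-05 and 1.2e-05). With library medians aligned it was lower in KO (-0.35, adjusted p = 0.0084) but did not pass in WT (-0.14, adjusted p = 0.25).

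Ptges3, the cytosolic synthase that is also the Hsp90 co-chaperone p23, was the most variable member within KOL. Its counts were 1425, 1286 and 1155 in WT, 1674, 1985 and 2063 in WTL, 1290, 1250 and 1276 in KO, and 2586, 1526 and 3203 in KOL. KOL replicate 2 lay above all of KO, but below all of WTL and far below the other KOL libraries. The rise with LPS in KO passed the test (log2 fold change 0.94 ± 0.19, adjusted p = 0.00053), but not with limma on log2(TPM + 1) (0.45, adjusted p = 0.11). That in WT (0.57 ± 0.19, adjusted p = 0.018) was lost when any of 4 libraries was left out, with adjusted p from 0.051 without WTL replicate 2 to 0.12 without WT replicate 3. KOL was not distinguishable from WTL (0.35, 95% interval -0.01 to 0.72, adjusted p = 0.14) with all libraries, and was higher without KOL replicate 2 (0.60, adjusted p = 0.00036). Reads of Ptges3 can be shared with the related copies Ptges3-ps and Ptges3l, whose group means were 24.3 to 44.0 normalized counts.

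The receptors of prostaglandin E2 moved apart with LPS: Ptger4 rose and Ptger2 fell, each more in the cells without CTCF. Ptger4 counted 886, 856 and 852 in WT and 782, 854 and 756 in KO, and 1279, 1513 and 1637 in WTL and 1975, 1756 and 2042 in KOL. The unstimulated groups overlapped (log2 fold change -0.12, 95% interval -0.30 to 0.07), while all KOL libraries lay above all WTL libraries (0.38 ± 0.09, adjusted p = 0.0036). Part of Ptger4 overlaps an exon of Ttc33 on the opposite strand (335 to 482 normalized counts as group means), and since the strand setting of the counting is not given in the sources used here, some reads may belong to either gene.

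Ptger2 counted 183, 188 and 202 in WT and 182, 212 and 203 in KO, and 113, 97.5 and 94.6 in WTL and 62.4, 59.7 and 48.0 in KOL. The unstimulated genotypes overlapped here too (0.06, 95% interval -0.15 to 0.27), and KOL lay below WTL in every library (log2 fold change -0.84 ± 0.14, adjusted p = 0.00019). LPS lowered it to 53.3% of the unstimulated level in WT (adjusted p = 1.1e-05) and to 28.5% in KO (adjusted p = 1.4e-08).

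The genes of the leukotriene branch were lower without CTCF, Alox5 already before stimulation and Alox5ap mainly after it. Alox5 counted 387, 418 and 442 in WT, 363, 341 and 365 in WTL, 185, 198 and 174 in KO and 115, 123 and 109 in KOL. No group overlapped another, and the order was KOL, KO, WTL and WT. KO held 44.6% of the WT level (log2 fold change -1.16 ± 0.08, adjusted p = 4.5e-08) and KOL 32.5% of the WTL level (-1.62 ± 0.09, adjusted p = 5e-09). Alox5 also fell with LPS in KO (-0.68 ± 0.09, adjusted p = 1.8e-05); the smaller difference in WT (-0.22 ± 0.08, adjusted p = 0.025) did not pass without WTL replicate 2 (-0.19, adjusted p = 0.1), nor with DESeq2 (adjusted p = 0.062).

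Alox5ap was the most abundant member, at 4011, 4547 and 4244 normalized counts in WT, 3596, 4081 and 3946 in WTL, 3704, 3574 and 3828 in KO and 2269, 2000 and 2189 in KOL. The first 3 groups lay close together, WTL overlapping both WT and KO, and KOL stood apart below them. KOL was lower than WTL (log2 fold change -0.85 ± 0.08, adjusted p = 5.6e-07) and than KO (-0.78 ± 0.08, adjusted p = 4.8e-07). The small difference between KO and WT (-0.21 ± 0.07, adjusted p = 0.038) did not pass when any of 5 of the 6 libraries was left out (adjusted p from 0.05, by rounding, without WT replicate 3 to 0.13 without KO replicate 2), and the fall with LPS in WT (-0.14, 95% interval -0.29 to 0.01) passed only without WT replicate 1 among the libraries left out (-0.26, adjusted p = 0.018).

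Cells other than dendritic cells also express Alox5 and Alox5ap, among them neutrophils, mast cells and macrophages. In bulk RNA fewer cells of a type and less RNA per cell cannot be told apart. The summed level of 8 neutrophil markers was 375 to 399 TPM in WT, 193 to 225 in KO, 348 to 443 in WTL and 288 to 332 in KOL. At each stimulation it thus was lower without CTCF, as Alox5 was. S100a8 and S100a9, which monocytic cells also express, held most of this sum. After LPS, S100a8 overlapped between the genotypes (204.91 to 278.93 TPM in WTL and 206.14 to 255.29 in KOL). S100a9 was lower in KOL (122.03 to 173.51 in WTL and 71.39 to 75.22 in KOL). Ngp, a neutrophil granule gene, was at 5.87 to 8.29 TPM in WT against 0.26 to 0.42 in KO and at 7.99 to 12.5 in WTL against 0.58 to 0.69 in KOL. Camp was at 2.72 to 3.32 in WT against 0 to 0.31 in KO and at 2.82 to 6.18 in WTL against 0.51 to 1.92 in KOL. Ly6g was low and went the other way after LPS, at 0.13 to 0.29 TPM in WTL against 0.95 to 1.81 in KOL. Unstimulated, it was at 0.22 to 0.73 in WT and 0 to 0.37 in KO, which overlapped. Of the 8 mast cell and basophil markers, Tpsb2 and Mcpt4 were at 0 in all libraries and 6 were below 1 TPM in all; Hdc held most of the sums of 31.1 to 36.8 TPM in WTL and 25.5 to 35.8 in KOL, against 2.20 to 5.30 unstimulated. Macrophage markers summed to 964 to 1046 TPM in WT, 557 to 666 in WTL, 1032 to 1083 in KO and 521 to 605 in KOL. Csf1r and Cd68 held most of this sum. Members went opposite ways: Csf1r was higher in KO (340 to 369 TPM in WT and 500 to 517 in KO). Adgre1 (92.1 to 105 in WT and 46.8 to 54.2 in KO), Mertk (13.71 to 13.85 and 5.53 to 5.88) and Fcgr1 (3.68 to 5.34 and 1.22 to 1.46) were lower, as Alox5 was. The 5 eosinophil markers summed to 12.6 to 15.1 TPM in WT, 5.66 to 11.2 in WTL, 19.8 to 24.6 in KO and 7.80 to 11.6 in KOL. Siglecf held most of this sum (10.38 to 12.92 in WT and 18.86 to 23.02 in KO), and 3 of the 5 stayed below 1 TPM. Prg2 went the other way (1.97 to 2.10 in WT and 0.14 to 1.42 in KO). TPM sums are best read between genotypes at the same stimulation, since LPS moved the median of all genes on this scale. The part of these cells in the results was not tested.

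Over all 10 genes, 4 rose and 3 fell with LPS in WT, beside 30.0% and 30.2% of the 14008 genes tested. In KO, 4 rose and 4 fell with LPS, beside 33.6% and 33.9% of all genes. Between unstimulated genotypes 1 was higher and 4 lower in KO (22.2% and 22.4% of all genes), and between stimulated ones 2 were higher and 5 lower in KOL (21.4% and 23.3%). The median log2 fold change of the members was -0.16 for KO against WT, and -0.58 between the stimulated genotypes, beside -0.01 and -0.03 over all genes tested, and 0.05 and -0.03 for LPS in WT and in KO, beside -0.02 for each over all genes.

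**Figure D2:**
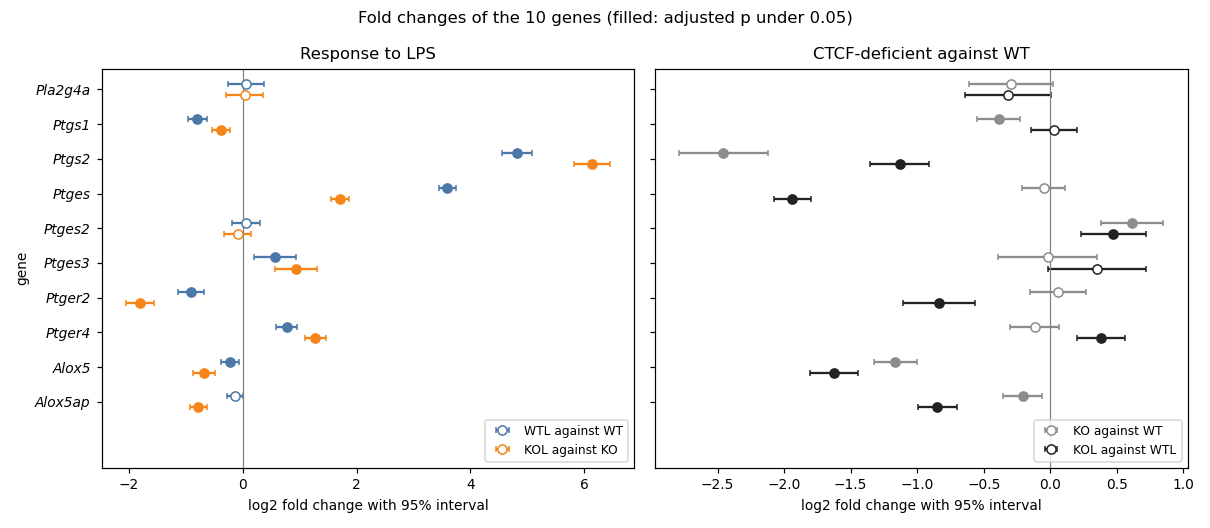
Log2 fold changes (x axis) of the 10 genes with 95% intervals, for LPS in WT and KO cells (left) and for KO against WT cells without and with LPS (right); filled points passed an adjusted p of 0.05. Ptgs2 (4.82 and 6.15) and Ptges (3.60 and 1.71) have the largest LPS responses, and Alox5 (-1.16 and -1.62) is lower in KO cells at both stimulations.

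Whether CTCF loss changed the LPS response itself was tested as an interaction, the LPS log2 fold change in KO minus that in WT. It passed for 7 of the 10 members, 3 upwards and 4 downwards, where 8.70% and 8.75% of all genes tested passed in each direction. The response was larger in KO for Ptgs2 (difference 1.32 ± 0.21, adjusted p = 0.00065) and Ptger4 (0.50 ± 0.13, adjusted p = 0.018), and the fall of Ptgs1 was smaller (0.41 ± 0.12, adjusted p = 0.029). The response of Ptges was smaller by 1.89 on the log2 scale (SE 0.11, adjusted p = 1.9e-07), the largest difference among the members. Ptger2 (-0.90 ± 0.18, adjusted p = 0.003), Alox5ap (-0.64 ± 0.11, adjusted p = 0.00094) and Alox5 (-0.46 ± 0.12, adjusted p = 0.02) fell further in KO. For Pla2g4a, Ptges2 and Ptges3 the differences were -0.02, -0.14 and 0.37, with 95% intervals of -0.48 to 0.43, -0.48 to 0.20 and -0.15 to 0.90.

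Whether some of these differences passed depended on single libraries. With 1 library left out, the difference stayed at 0.33 to 0.49 for Ptgs1, 0.41 to 0.58 for Ptger4 and -0.50 to -0.34 for Alox5. That of Ptgs1 did not pass without WTL replicate 3 (adjusted p = 0.056), KO replicate 2 (0.073), KO replicate 3 (0.079) or KOL replicate 1 (0.076), and that of Ptger4 without KO replicate 1 (0.051) or KO replicate 3 (0.058). That of Alox5 did not pass without WT replicate 1 (0.098), WT replicate 2 (0.08), KO replicate 2 (0.059) or KOL replicate 3 (0.053), while that of Ptges3 passed without KOL replicate 2 (0.62, adjusted p = 0.0068). That of Ptgs2 passed on the log2(TPM + 0.1) scale (1.25, adjusted p = 0.0042) and not on the log2(TPM + 1) scale (0.47, adjusted p = 0.13).

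**Figure D3:**
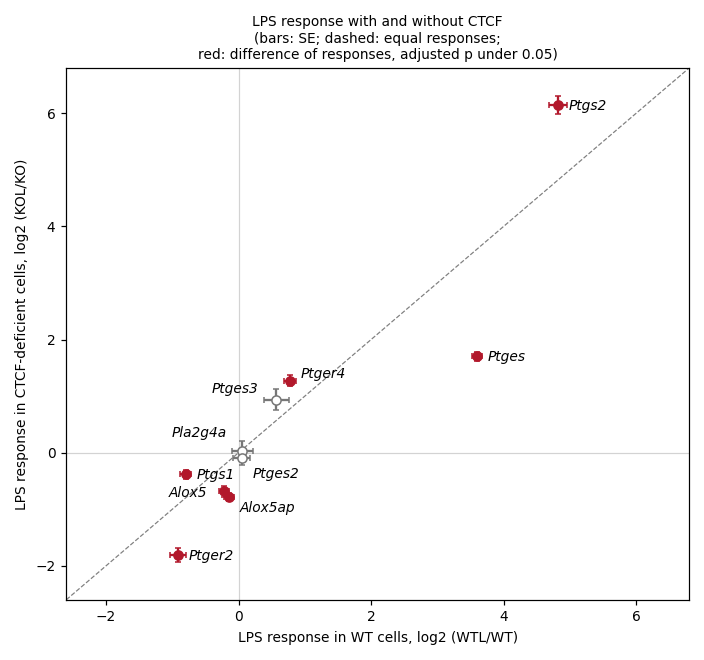
LPS response of each of the 10 genes in KO cells (y axis, log2) against that in WT cells (x axis, log2), with SEs; the dashed line marks equal responses, and red points have a difference with an adjusted p under 0.05. Ptgs2 lies above the line (6.15 against 4.82) and Ptges below it (1.71 against 3.60).

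Levels can be compared between genes only per transcript length, and for this the deposited TPM were used, within each library. Between groups TPM are not centred: on the log2(TPM + 1) scale the median of all genes moved by -0.44 with LPS in WT, by -0.38 in KO and by -0.10 for KO against WT. Members are therefore compared across groups on this scale only as ratios within a library. With TMM the median stayed within 0.04 of 0, but TMM sets most genes near 0 by design, so this does not favour either scale. Alox5ap was the highest member in every group (402 ± 19.2 TPM in WT, 258 ± 17.4 in WTL, 326 ± 7.95 in KO and 155 ± 25.6 in KOL; mean ± SD, n = 3). Ptgs2 was the lowest in WT and in KO (4.16 ± 0.16 and 0.71 ± 0.05 TPM), and in WTL the second highest in the group means (81.8 ± 17.7 TPM), its range of 69.8 to 102 overlapping that of Ptges3 (65.0 to 81.0). Ptger2 was the lowest member after LPS (2.15 ± 0.32 TPM in WTL and 1.21 ± 0.18 in KOL).

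The ratio of Ptgs2 to Ptgs1 TPM had medians of 0.146 in WT and 0.0363 in KO, and of 8.71 in WTL and 4.06 in KOL, with no overlap between groups (KOL 3.53 to 4.77, WTL 6.84 to 9.74). Ptges was below Ptges2 without LPS (median ratios 0.462 in WT and 0.383 in KO) and above it with LPS, at 6.16 in WTL but 1.24 in KOL. The ratio of Ptger4 to Ptger2 had medians of 4.63 in WT and 16.1 in WTL, and of 4.24 in KO and 32.8 in KOL, again with no overlap between the stimulated groups (11.3 to 18.3 and 28.5 to 42.4). Alox5ap exceeded Alox5 by a median of 24.5 times in WT, 25.5 in WTL, 51.0 in KO and 37.1 in KOL, on the TPM scale. RSEM's effective lengths, by which TPM are scaled, differed between libraries for Pla2g4a (1019 to 2628 bases), Ptgs1 (1738 to 2635), Ptges (1798 to 3307), Ptges2 (956 to 1434) and Alox5 (1631 to 2648). Ratios with these genes carry that variation. For Ptges2 the group medians were 985 bases in WT, 1174 in WTL, 1090 in KO and 1427 in KOL. The lengths hardly differed for Ptgs2 (4213 to 4236) and Ptger4 (3044 to 3066).

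The genes whose pattern over the 12 libraries was most like a member's were found by the root mean square (RMS) difference in log2(normalized count + 1), each gene centred on its mean, among 9337 other genes with a mean of at least 100 normalized counts. For Ptgs2 these were Isg20, an interferon-induced exonuclease (RMS 0.38), Ptx3, the secreted pattern recognition protein pentraxin 3 (0.46), and Tgtp2, an interferon-inducible GTPase with a near-identical copy (0.47), where Ptgs2 itself varied about its mean by 2.89. All 3 had the Ptgs2 order of groups, with Isg20 for instance at 11.8 normalized counts in KO, 38.4 in WT, 620 in KOL and 1122 in WTL. For Ptges they were Dennd3 (0.36), Cited2, a transcriptional coregulator (0.37), and Ms4a6c (0.41, an overlap with BE692007 on the opposite strand makes its count uncertain), where Ptges varied by 1.49. For Alox5 the closest gene was Ltb4r1, the high-affinity receptor of leukotriene B4 (0.14), then Tex261 (0.18) and the mitochondrial transporter Abcb10 (0.18), where Alox5 varied by 0.74. Ltb4r1 had 260 ± 35.1 normalized counts in WT, 215 ± 13.2 in WTL, 98.8 ± 3.34 in KO and 58.9 ± 3.90 in KOL, the order of groups of Alox5. These are descriptions over 12 libraries that share their groups, with no test.

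**Figure D4:**
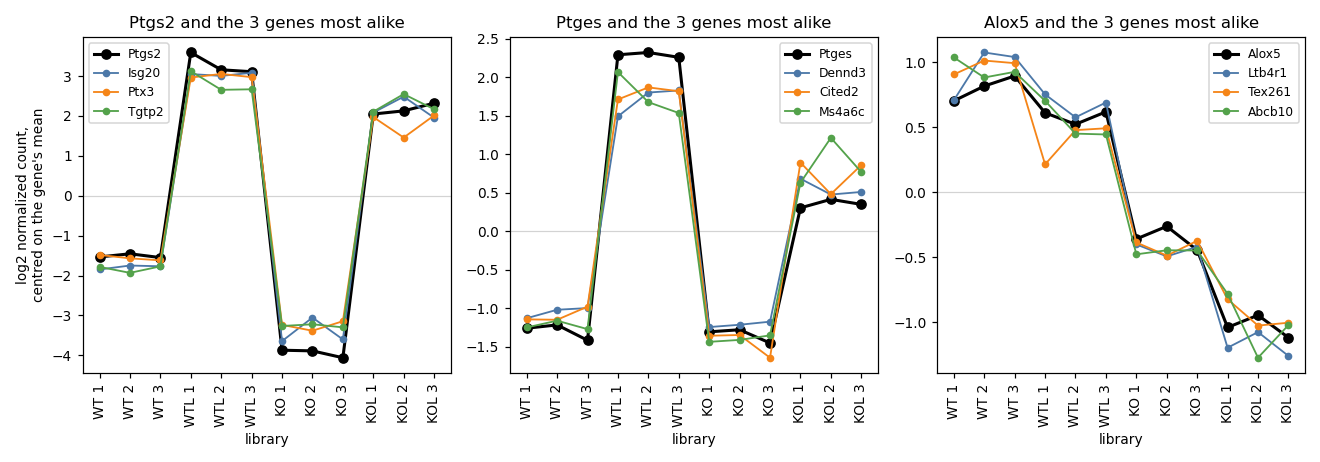
Log2 normalized counts, centred on each gene's mean (y axis), in each of the 12 libraries (x axis) for Ptgs2, Ptges and Alox5 (black) and the 3 genes most alike to each (colours). Ltb4r1 follows Alox5 with an RMS difference of 0.14, and the genes near Ptges differ from it most in WTL and KOL.

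The rest of the pathway was followed in 5 lists holding 56 other genes, of which 34 passed the filter on low counts; the other 22 had at most 19.4 normalized counts in any library, and Ptgds and Ptgfr were at 0 in all. With LPS, 6 of the 34 rose (17.6%) and 14 fell (41.2%) in WT, and 7 rose (20.6%) and 14 fell (41.2%) in KO. Without CTCF, 8 were higher (23.5%) and 15 lower (44.1%) before stimulation, and 5 higher (14.7%) and 13 lower (38.2%) after it. The shares of all genes given above are the background for each.

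In arachidonate release and recycling, 12 of 17 genes were tested. Pla2g7, the platelet-activating factor acetylhydrolase and the most abundant phospholipase of the list, was lower without CTCF at both stimulations (9459 ± 50.5 normalized counts in WT and 5746 ± 111 in KO; log2 fold change -0.72, adjusted p = 1.7e-06; 8830 ± 818 in WTL and 5298 ± 272 in KOL). Anxa1, annexin A1, an inhibitor of phospholipase A2 activity, was also lower (13740 ± 420 in WT and 9538 ± 187 in KO, adjusted p = 0.0012; 25720 ± 4591 in WTL against 12450 ± 1339 in KOL, a log2 difference of -1.05, adjusted p = 2.6e-06), and it rose with LPS in WT (0.90, adjusted p = 5.5e-06), a call that limma on TPM did not make. Pla2g12a, a secreted phospholipase, was higher in KO (0.93, adjusted p = 0.0014), as was Mgll, which releases arachidonate from a monoacylglycerol, in KOL against WTL (0.79, adjusted p = 1.7e-06). Pla2g6 fell with LPS in both genotypes (-0.94 and -0.91), and the lysosomal Pla2g15 fell more in WT (694 ± 28.9 to 349 ± 62.2 normalized counts) than in KO (573 ± 11.2 to 499 ± 45.4; interaction 0.79, adjusted p = 0.0025). Acsl4, which couples arachidonate to coenzyme A, rose with LPS in WT (0.38, adjusted p = 0.0025) and in KO (0.80, adjusted p = 3.2e-06).

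Among other prostanoid synthases, transporters and breakdown enzymes, 6 of 10 were tested. Tbxas1, thromboxane synthase, fell with LPS in WT (2565 ± 58.8 to 1438 ± 31.3 normalized counts, adjusted p = 6e-08) and in KO (3394 ± 115 to 1523 ± 92.5, adjusted p = 1.4e-09), and started higher in KO (log2 fold change 0.40, adjusted p = 0.00014). Ptgr2, a prostaglandin reductase, fell by 1.16 in WT and by 1.29 in KO on the log2 scale. Cbr1, a carbonyl reductase that can convert prostaglandin E2, was higher without CTCF by 0.84 before LPS (adjusted p = 1.1e-05) and by 0.98 after it (adjusted p = 8.5e-06). Ptgr1, a second reductase, was lower in KO by 0.26 on the log2 scale (adjusted p = 0.025), a call lost without WT replicate 3 or any KO library, and Abcc4, a prostaglandin exporter, was lower in KOL than in WTL (-0.36, adjusted p = 0.013), a call lost without KOL replicate 1. Of the other prostanoid receptors only Ptgir and Ptger1 were tested, 2 of 7. Ptger1 had 213.5 ± 18.9 normalized counts in WT, 116 ± 5.44 in WTL, 343 ± 25.1 in KO and 91.7 ± 27.2 in KOL. It was higher in KO than in WT (log2 fold change 0.68, adjusted p = 0.00072), but KOL against WTL did not pass (-0.35, adjusted p = 0.11). Its fall with LPS was larger in KO (-1.91) than in WT (-0.88), with an interaction of -1.03 (adjusted p = 0.0042). Ptgir, the prostacyclin receptor, had 2003 ± 153 normalized counts in WT, 1141 ± 125 in WTL, 983 ± 37.6 in KO and 431 ± 84.5 in KOL, lower with LPS and lower without CTCF (log2 fold change -1.03 for KO against WT, adjusted p = 5.1e-06, and -1.40 for KOL against WTL, adjusted p = 4e-07).

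Among other lipoxygenases and leukotriene enzymes, 9 of 15 were tested, and 6 were lower and 2 higher in KO than in WT. Dpep2, one of the 6, is a symbol carried by 2 identifiers. The one with nearly all the counts was used. Mgst2, a microsomal glutathione S-transferase that can make leukotriene C4, had 171 ± 14.2 normalized counts in WT and 9.87 ± 2.76 in KO, 17.1-fold lower (log2 fold change -4.10 ± 0.19, adjusted p = 4.6e-10). The stimulated libraries had 142 ± 10.2 (WTL) and 27.1 ± 4.23 (KOL), 5.20-fold lower (-2.38 ± 0.17, adjusted p = 4.3e-08). Ltc4s, leukotriene C4 synthase, was lower in KO before LPS (331 ± 46.4 against 130 ± 5.81, adjusted p = 9.3e-05) and reached 300 ± 51.2 in KOL beside 291 ± 101 in WTL (log2 fold change 0.03, adjusted p = 0.91). Its LPS response differed between genotypes (interaction 1.38 ± 0.29, adjusted p = 0.0042). Mgst3, of the same enzyme family, was lower at both stimulations (-0.89 and -0.98, adjusted p = 3.7e-05 and 2e-05). Lta4h, the hydrolase that makes leukotriene B4, differed less (-0.26 before and -0.19 after LPS, adjusted p = 0.0087 and 0.041), and Ggt5, which turns leukotriene C4 into D4, fell with LPS in both genotypes (-1.06 and -1.37). Cyp4f18, which oxidizes leukotriene B4, was higher in KO than in WT (0.74, adjusted p = 4.7e-06) and in KOL than in WTL (0.44, adjusted p = 0.001).

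Of the receptors for leukotrienes and other lipid mediators, 5 of 7 were tested. Ltb4r1 was lower without CTCF at both stimulations (log2 fold change -1.40 ± 0.11, adjusted p = 1.8e-07, and -1.86 ± 0.13, adjusted p = 3.7e-08), the same direction as Alox5. Cysltr1, a receptor of cysteinyl leukotrienes, fell with LPS in WT (-0.77, adjusted p = 0.00077) and in KO (-0.998, adjusted p = 7.9e-05) and had nearly the same level in both genotypes without LPS (283 ± 26.6 in WT and 284 ± 21.5 in KO). Fpr2, the receptor of lipoxin A4 and formyl peptides, rose with LPS in both genotypes (1.04 in WT and 0.93 in KO) and stayed lower without CTCF (-0.32 before and -0.43 after LPS). Cmklr1, a receptor for resolvin E1 and chemerin, fell with LPS in KO (1465 ± 41.6 to 580 ± 144 normalized counts, adjusted p = 3.5e-06), while WT and WTL had 1164 ± 23.9 and 1129 ± 243 (interaction -1.29 ± 0.22, adjusted p = 0.0011).

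**Figure D5:**
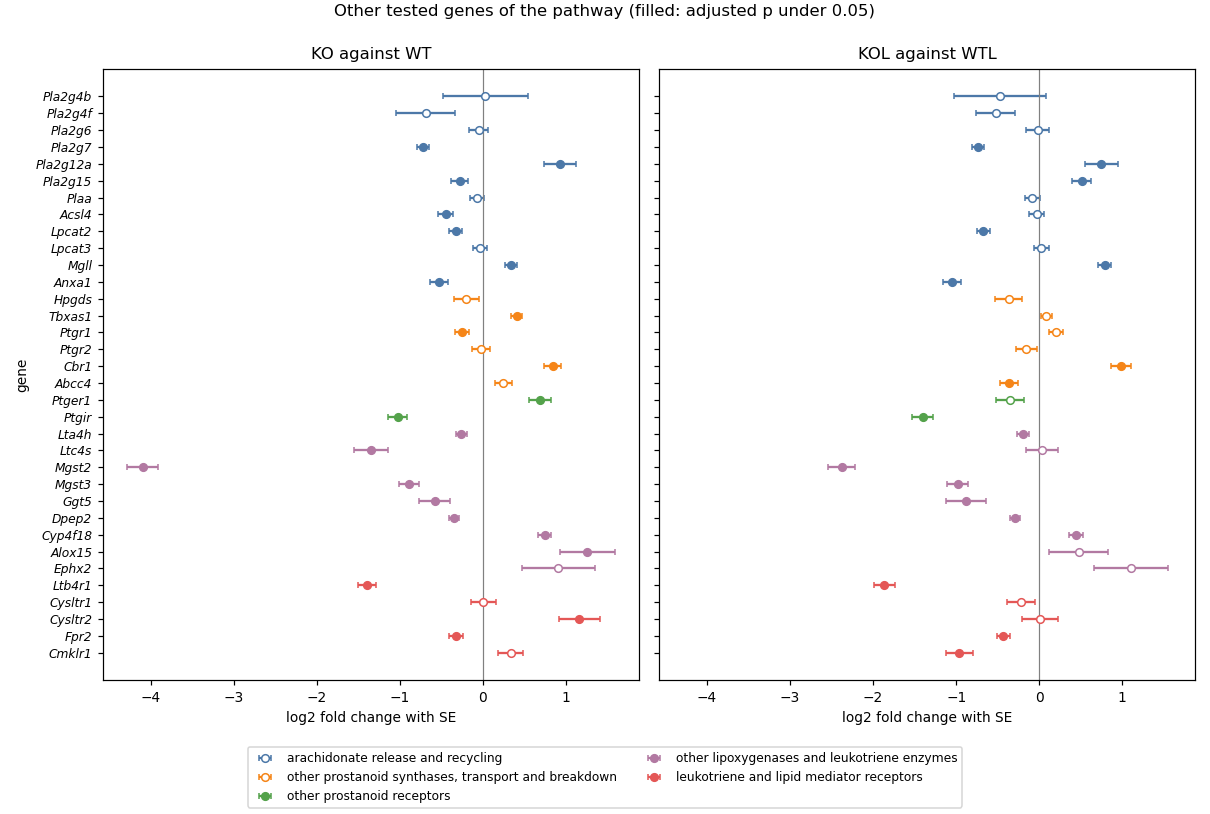
Log2 fold changes (x axis, with SE) of the 34 other tested pathway genes for KO against WT (left) and KOL against WTL (right), coloured by list; filled points passed an adjusted p of 0.05. Mgst2 lies farthest from 0 in both panels (-4.10 and -2.38), and Ltc4s is lower only in the unstimulated panel (-1.35 against 0.03).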

How the data were processed

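Poly(A) selection on a stranded kit is named in the study's methods and ribosomal RNA depletion in the labels. The authors trimmed the reads, aligned them to mm10 with STAR (2.5.1 per the submitters' processing notes) and quantified genes with RSEM; the strand setting is not given in the sources used here. The authors deposited an expected count, an estimate that need not be whole, for each of 55335 genes in each library. TPM, scaled by effective length to the same sum in every library, were deposited beside it and keep no depth.

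Groups and replicate numbers came from the labels. Expected counts were rounded, normalized by TMM and filtered with filterByExpr (14008 genes), and 1 fit of all 12 libraries was tested with edgeR 4.0.16 quasi-likelihood in R 4.3.3, in 5 comparisons, with Benjamini-Hochberg adjustment over all genes, a threshold of 0.05 and no fold cutoff. All p-values in the text are from this test unless named. The pipeline was tested on simulated data. SEs are the log2 fold change divided by the square root of F, and 95% intervals are 1.96 SEs. Normalized counts are counts per effective library size times its mean. The study's methods name DESeq2, an alternative here (1.42.0), besides limma 3.58.1 on TPM, other filters, and leaving out each library. Same-numbered libraries did not deviate together (correlations of -0.33 to 0.13), so the number was not used as a pairing in the main test. This check cannot show whether cultures with the same number shared an animal.

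The members and gene lists were chosen with earlier results of these data known. All members were named. From each other list and comparison, up to 3 genes with the largest fold change among those that passed with a mean of at least 50 normalized counts could be named. Positions are from GENCODE M21. With 3 libraries a group and these depths, intervals above give the precision.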

Additional observations from a re-analysis of the deposited data

Results flagged for a closer look

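The LPS response differed between genotypes past the test for 7 members. The LPS log2 fold change in KO minus that in WT was 1.32 for Ptgs2, 0.50 for Ptger4, 0.41 for Ptgs1, -0.46 for Alox5, -0.64 for Alox5ap, -0.90 for Ptger2 and -1.89 for Ptges. No cause of these differences was tested.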

How the results depend on the processing

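Over the 10 members and 5 comparisons, alternatives kept the direction and the call of the tested differences in 703 cases, lost the call in 49 and gained one in 13; the 35 changes of sign were all in differences that had not passed, and 2 of these passed with the other sign (Ptges2 with LPS in WT, limma on TPM with either pseudocount, adjusted p = 6.3e-05 and 8.5e-05). With limma on TPM the members that passed for LPS in WT were 2 higher and 5 lower. For the interaction, Ptgs1 and Ptger4 passed as higher and 1 member as lower with pseudocount 1. With pseudocount 0.1, Ptgs2 and Ptger4 passed as higher and 2 members as lower. With library medians aligned (an alternative chosen after seeing the data), the interaction had 0 higher and 2 lower. Why the median of all genes shifted with TPM was not tested. Every unstimulated library had a TMM factor above 1 (the lowest, 1.12, was KO replicate 3). Every stimulated library had a factor below 1 (the highest, 0.88, was KOL replicate 1). The main test uses these factors, so its LPS fold changes depend on them. TMM takes most genes as unchanged, so these data cannot tell whether RNA levels shifted as a whole. Leaving out 1 library gave 3 to 4 higher and 2 to 4 lower for LPS in WT, and 1 (without KO replicate 3) to 4 higher and 3 to 4 lower for the interaction. With the replicate block, whose numbers share no deviation, 4 rose and 3 fell with LPS in WT, 1 was higher and 3 lower in KO (Alox5ap -0.20, adjusted p = 0.059), and no other member's call changed; no member count moved by over 1.5 times.

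The signs that changed, given for limma with pseudocounts 1 and 0.1, then with aligned medians, then as the range over single libraries left out, were as follows. For LPS in WT, Ptges2 gave -0.63, -0.68, -0.14 and -0.09 to 0.17, and Pla2g4a -0.70, -0.75, -0.20 and -0.11 to 0.15. For KO against WT, Ptges gave 0.18, 0.20, 0.31 and -0.14 to 0.00, Ptger2 -0.04 and -0.05 and, over libraries left out, -0.01 to 0.12, and Ptges3 0.03 with aligned medians and -0.13 to 0.02. For KOL against WTL, Ptgs1 gave -0.11, -0.12, -0.04 and -0.06 to 0.09, and for LPS in KO, Pla2g4a gave -0.82, -0.89, -0.38 and -0.08 to 0.22; its interaction ranged from -0.14 to 0.17. On TPM, Ptger4 did not pass for LPS in WT (0.23), nor Ptges3 (0.05 in WT; 0.45 and 0.46 in KO), nor Alox5 for LPS in KO with aligned medians (-0.18), nor the interaction of Alox5 (-0.04 to -0.12) or Alox5ap (-0.45 to -0.51). Ptges2 for LPS in KO passed as lower (-0.78, -0.83 and, aligned, -0.35). The cause was not tested. Of the other pathway genes named, 944 alternatives kept the call, 66 lost it, and 2 changed the sign (Anxa1 for LPS in KO, -0.11 with either pseudocount). The number of other pathway genes lower with LPS was 24 in WT and 22 in KO on TPM, and the interaction had 2 to 7 lower with 1 library left out and 4 with the replicate block.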
